A study of Mus musculus with 9 samples.

Results

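The Nrf2 antioxidant pathway was followed through 10 genes of RAW264.7 cells, a macrophage-like mouse leukemia line. The genes were Nfe2l2, Keap1, Hmox1, Nqo1, Gclm, Gclc, Txnrd1, Slc7a11, Srxn1 and Prdx1. They were taken as the rows of the deposited gene table whose Ensembl identifier carries any of these symbols in GENCODE M21. All 10 were found among 28137 rows. The symbols were listed with earlier results of these data known, so the members are not a list independent of the data. mRNA was measured by paired-end RNA-seq in 9 libraries, 3 labelled NC siRNA (a control siRNA), 3 labelled SFRP2 siRNA and 3 labelled RAB6A siRNA. According to the labels, every culture received 60 nM of siRNA for 6 h, recovered for 12 h and was then held in 100 ng/ml lipopolysaccharide (LPS) for 24 h, so that NC cells were LPS-treated too and no group lacked LPS or siRNA. The study's methods give another siRNA dose and another time after transfection, and add interferon-γ. The sample titles also carry the mark 6H without saying what it times. It was not settled here which of these accounts holds for the libraries. SFRP2 is a secreted Wnt modulator and Rab6a a small GTPase of Golgi transport. The comparisons asked how the pathway differed between cells given either siRNA and cells given the control siRNA. Nothing in the labels says whether the 3 libraries of a group came from separate cultures, so the p-values measure the spread between these libraries, which may be technical.

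Nrf2, the protein of Nfe2l2, is a transcription factor that Keap1 holds and presents to a Cul3 ubiquitin ligase for degradation. Oxidants and electrophiles modify Keap1, and Nrf2 then enters the nucleus, pairs with a small Maf protein and binds antioxidant response elements in the promoters and enhancers of its target genes. Bach1 competes for the same elements and leaves them when it binds haem. The target genes make glutathione (Gclc, Gclm, Slc7a11), keep thioredoxin and peroxiredoxins reduced (Txnrd1, Srxn1, Prdx1), reduce quinones (Nqo1) and break down haem (Hmox1). In macrophages the pathway is known for limiting inflammatory gene expression after LPS.

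Of the 10 members, 8 have a promoter window in the RefSeq table of mouse promoters used here (GRCm38.p6, 250 bases before to 50 bases after each annotated start). Hmox1 and Gclc have none there. Both strands were searched for the letters TGACNNNGC and TGAGNNNGC, which are core forms of the antioxidant response element, and for TGAGTCA, the AP-1 site, which can overlap either of them. Of 32851 windows in the table, 12.4% hold TGACNNNGC, 17.6% hold TGAGNNNGC and 5.2% hold TGAGTCA, so that a match is common and is a description of letters, not of binding. The stretches that hold matches before the start are shown for 6 members, because they are the places where Nrf2 and Bach1 would be looked for in the genes whose levels follow. Capitals mark the matches, on either strand, and each stretch is written 5′ to 3′ on the strand of its gene.
Nfe2l2, chr2:75704855-75704913, minus strand: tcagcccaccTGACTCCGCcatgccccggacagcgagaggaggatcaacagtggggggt
Gclm, chr3:122245383-122245471, plus strand: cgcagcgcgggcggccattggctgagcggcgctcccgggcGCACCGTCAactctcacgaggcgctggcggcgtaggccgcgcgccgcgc
Txnrd1, chr10:82859074-82859162, plus strand: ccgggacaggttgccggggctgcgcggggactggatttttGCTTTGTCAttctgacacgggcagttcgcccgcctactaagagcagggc
Slc7a11, chr3:50443662-50443750, minus strand: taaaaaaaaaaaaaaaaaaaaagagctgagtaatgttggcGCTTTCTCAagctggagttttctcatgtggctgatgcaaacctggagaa
Srxn1, chr2:152105326-152105523, plus strand: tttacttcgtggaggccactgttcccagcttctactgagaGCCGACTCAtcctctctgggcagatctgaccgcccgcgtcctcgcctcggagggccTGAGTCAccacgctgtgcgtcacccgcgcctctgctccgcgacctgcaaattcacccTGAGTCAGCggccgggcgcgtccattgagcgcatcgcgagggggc
Prdx1, chr4:116685349-116685514, plus strand: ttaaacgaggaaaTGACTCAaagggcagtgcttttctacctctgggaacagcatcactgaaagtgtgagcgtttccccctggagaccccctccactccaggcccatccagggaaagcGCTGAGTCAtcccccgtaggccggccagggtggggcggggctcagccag

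The match began at position -240 from the start in Nfe2l2, at -134 in Gclm, at -97 in Slc7a11 and at -92 in the second of 3 windows of Txnrd1. Srxn1 held TGAGNNNGC at -158 and at -45, and the latter was also an AP-1 site. It also held an AP-1 site at -102 and TGACNNNGC 28 bases after the start. Prdx1 held TGACNNNGC at -133, overlapping an AP-1 site at -131, with another AP-1 site at -237 and TGAGNNNGC 15 bases after the start. No match lay in the windows of Keap1 and Nqo1, which says only that these letters are not within those 300 bases.

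The libraries held between 32758729 and 47149258 reads, read back from the steps of the FPKM values (reads scaled to exon length and library size). The siRNA targets gave an uneven check of the labels. Sfrp2 had 2 to 4 reads in each of the 9 libraries and was not lower in those labelled SFRP2 siRNA (4, 4 and 2 reads) than in NC (2, 2 and 2 reads), so the SFRP2 label could not be checked and a decrease was not detectable at this depth. Rab6a fell by 0.31 on the log2 scale in the libraries labelled RAB6A siRNA (SE 0.06, adjusted p = 0.0024 from limma), from 25.7 ± 1.48 to 20.7 ± 0.445 FPKM (SD, n = 3 each). It shares 19.0% of its exon bases with Mrpl48 on the other strand. Of all 12712 genes tested, 36.5% were called lower in the same comparison, so this fall alone does not establish a knockdown. The 8 macrophage markers were present in every library, with a summed level of 4516 to 4982 FPKM in NC, 3998 to 4323 with the SFRP2 label and 3945 to 4097 with the RAB6A label. Among 5 genes that mark other cell types the sum stayed at 2.97 FPKM or below.

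In NC cells Hmox1, the haem oxygenase, was the most abundant of the members by FPKM, which is a level per exon length. It had 707 ± 71.2 FPKM (SD, n = 3), followed by Prdx1 with 139 ± 6.11 and Txnrd1 with 59.2 ± 0.989. Srxn1, Gclc, Slc7a11, Nfe2l2, Gclm and Keap1 came next, between 22.7 and 9.02 FPKM, and Nqo1 was last with 0.0704 ± 0.0373 FPKM. In this order the neighbours Gclc and Slc7a11 overlapped between libraries, as did Gclm and Keap1, and the other neighbours did not. The libraries labelled SFRP2 siRNA held the members in the same order, with no neighbours overlapping. With the RAB6A label Nfe2l2 moved from place 7 to place 4, ahead of Srxn1, and Slc7a11 and Keap1 stood at places 8 and 9, both below Gclm. The 10 genes together took 0.240% to 0.269% of the reads in NC, 0.246% to 0.256% with the SFRP2 label and 0.282% to 0.306% with the RAB6A label, the larger share resting on Hmox1.

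**Figure D1:**
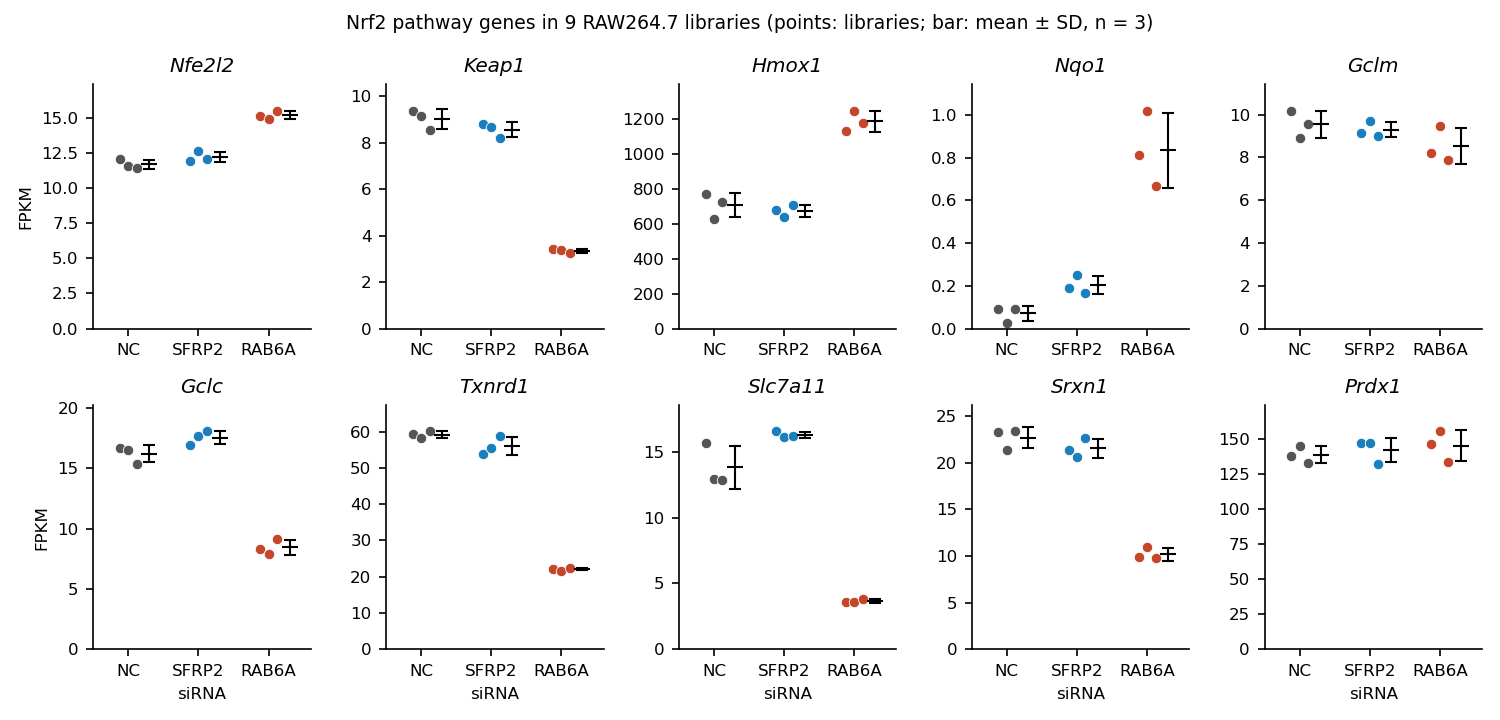
Level of each of the 10 genes in FPKM (vertical axis, linear, from 0, with its own scale for each gene) in the 3 NC, 3 SFRP2 siRNA and 3 RAB6A siRNA libraries. Points are libraries and the bar beside them is the mean ± SD (n = 3). Keap1, Gclc, Txnrd1, Slc7a11 and Srxn1 lie lower in all 3 RAB6A siRNA libraries than in any NC library, Nfe2l2, Hmox1 and Nqo1 lie higher, and Gclm and Prdx1 overlap.

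With the RAB6A label, the regulator pair moved apart. Nfe2l2 (ENSMUSG00000015839, minus strand of chromosome 2, 75675513 to 75704641) rose and Keap1 (ENSMUSG00000003308, minus strand of chromosome 9, 21229730 to 21239361), its inhibitor, fell. Hmox1 rose, whereas 4 other target genes fell (Gclc, Txnrd1, Slc7a11 and Srxn1), and Gclm and Prdx1 did not pass the test. Each library is bulk RNA of a culture, so fewer cells expressing a gene and less RNA of it per cell cannot be told apart. Of the 9 members past the filter on low values (a mean of at least 0.5 FPKM over both groups), 7 had an adjusted p under 0.05, 2 of them higher and 5 lower. Over all 12712 genes tested, 74.1% had such a p (37.6% higher and 36.5% lower), so the share of members that changed was near the background. The median log2 fold change was -0.93 over the 9 members and 0.03 over all genes tested. Counting the 10 members by their libraries, 3 lay higher than NC without overlap, 5 lower and 2 overlapped. Nqo1, among those higher, was below the filter and so is not among the genes tested. Of all genes tested, 77.4% had groups that did not overlap (39.2% higher and 38.2% lower). A 3 against 3 exact permutation test cannot give a p below 0.1. Groups without overlap always reach that value, so the p of 0.1 for these 8 members restates the count.

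Nfe2l2 had 12.0, 11.6 and 11.4 FPKM in the NC libraries and 15.1, 14.9 and 15.5 in those labelled RAB6A siRNA. The lowest of the latter lay above the highest NC library, and the log2 fold change was 0.38 (SE 0.05, adjusted p = 4.4e-04 from limma). It was 0.59 once GC content and gene length were regressed out. Keap1 had 9.38, 9.13 and 8.54 FPKM in NC and 3.42, 3.37 and 3.24 with the RAB6A label. It fell by 1.40 on the log2 scale (SE 0.07, adjusted p = 2.9e-06 from limma). An antisense gene, Gm16754, shares 10.9% of the exon bases of Keap1, and whether reads were counted by strand is not given in the sources used here. Within a library, Keap1 came to 0.773 ± 0.0211 of the FPKM of Nfe2l2 in NC and to 0.220 ± 0.00968 with the RAB6A label (SD, n = 3 each; exact two-sided permutation test, p = 0.1, at its lower limit).

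Hmox1 (ENSMUSG00000005413, plus strand of chromosome 8, 75093621 to 75100589) frees iron, carbon monoxide and biliverdin from haem. Its level was 769, 629 and 723 FPKM in NC and 1131, 1247 and 1178 with the RAB6A label. No RAB6A siRNA library came near the NC range, and Hmox1 rose by 0.75 on the log2 scale (SE 0.09, adjusted p = 2.2e-04 from limma). The size of this difference depended on the scaling, with 0.32 after quantile normalization (adjusted p = 0.0099 from limma). Nqo1 (ENSMUSG00000003849, minus strand of chromosome 8, 107388225 to 107403206), a quinone reductase often used as a readout of Nrf2, was barely expressed. It had 6, 2 and 6 reads in the NC libraries and 46, 60 and 34 in those labelled RAB6A siRNA, or 0.0704 ± 0.0373 and 0.835 ± 0.177 FPKM (SD, n = 3 each). Every RAB6A siRNA library was above every NC library, and over the summed reads the ratio at equal depth was 12.3 (95% exact Clopper-Pearson interval 7.08 to 23.0). That interval covers counting error only and would be wider if both mates of a pair were counted. Nqo1 was below the filter in this comparison. Without the filter its log2 fold change was 2.46 (adjusted p = 6.8e-04 from limma).

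Of the members that serve glutathione synthesis, Gclc and Slc7a11 fell and Gclm did not pass the test. Gclc (ENSMUSG00000032350, plus strand of chromosome 9, 77754535 to 77794485), the catalytic subunit of the rate-limiting enzyme of glutathione synthesis, had 16.7, 16.5 and 15.4 FPKM in NC and 8.34, 7.86 and 9.12 with the RAB6A label. Its log2 fold change was -0.93 (SE 0.07, adjusted p = 2.0e-05 from limma). Gclm (ENSMUSG00000028124, plus strand of chromosome 3, 122245557 to 122270732), the modifier subunit of that enzyme, had 10.2, 8.90 and 9.56 FPKM in NC and 8.22, 9.49 and 7.89 with the RAB6A label. These ranges overlap, and the log2 fold change was -0.16 (95% interval -0.37 to 0.05, adjusted p = 0.13 from limma). Gclm passed the threshold after median-of-ratios scaling (-0.21, adjusted p = 0.047 from limma) and without RAB6A siRNA replicate 2 (-0.24, adjusted p = 0.037 from limma), whereas with GC content and gene length regressed out it was -0.01 (adjusted p = 0.95 from limma). The Gclc to Gclm ratio of FPKM was 1.70 ± 0.137 in NC and 1.00 ± 0.164 with the RAB6A label (SD, n = 3 each; exact two-sided permutation test, p = 0.1), and the libraries did not overlap. Slc7a11 (ENSMUSG00000027737, minus strand of chromosome 3, 49892526 to 50443614), the cystine importer that feeds glutathione synthesis, showed the largest fall of the members. It had 15.7, 12.9 and 12.9 FPKM in NC and 3.59, 3.60 and 3.85 with the RAB6A label, a log2 fold change of -1.88 (SE 0.09, adjusted p = 3.0e-06 from limma). Stretches of at least 150 bases in 9 other genes are at least 95% identical to it, so a part of its reads could belong to them.

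Among the thiol-reducing members, Txnrd1 and Srxn1 fell and Prdx1 kept an overlapping range. Txnrd1 (ENSMUSG00000020250, plus strand of chromosome 10, 82833951 to 82897712), the cytosolic thioredoxin reductase, had 59.3, 58.2 and 60.2 FPKM in NC and 22.2, 21.7 and 22.3 with the RAB6A label. Its log2 fold change was -1.42 (SE 0.05, adjusted p = 1.1e-06 from limma). Srxn1 (ENSMUSG00000032802, plus strand of chromosome 2, 152105516 to 152111376), sulfiredoxin, which repairs over-oxidised peroxiredoxins, had 23.3, 21.4 and 23.4 FPKM in NC and 9.85, 11.0 and 9.74 with the RAB6A label. It fell by 1.15 on the log2 scale (SE 0.07, adjusted p = 6.8e-06 from limma). Prdx1 (ENSMUSG00000028691, plus strand of chromosome 4, 116685544 to 116700822), a peroxiredoxin and one of the substrates of Srxn1, had 138, 146 and 134 FPKM in NC and 147, 156 and 134 with the RAB6A label. Its log2 fold change was 0.06 (95% interval -0.11 to 0.23, adjusted p = 0.45 from limma), and the sign turned after quantile normalization (-0.10) while the GC content and gene length correction gave 0.20 (adjusted p = 0.040 from limma). A pair of pseudogenes carries stretches at least 95% identical to Prdx1. The Srxn1 and Prdx1 stretches printed above both hold the element and AP-1 letters, and 1 of these genes fell while the other did not pass the test. Hmox1 and Txnrd1, both far above the filter, moved in opposite directions, and their ratio of FPKM went from 11.9 ± 1.08 in NC to 53.8 ± 3.38 (SD, n = 3 each; exact two-sided permutation test, p = 0.1).

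**Figure D2:**
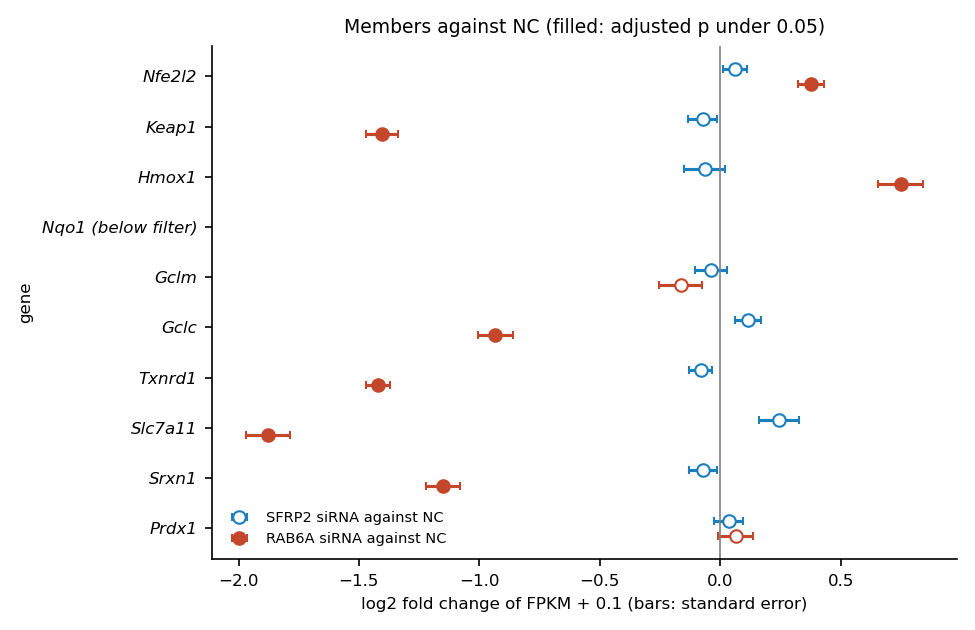
Log2 fold change of FPKM + 0.1 against NC (horizontal axis) for each gene (vertical axis), in blue for the libraries labelled SFRP2 siRNA and in red for those labelled RAB6A siRNA. Bars are standard errors from limma and filled points have an adjusted p under 0.05; Nqo1 lay below the filter on low values in both comparisons. The red points run from -1.88 for Slc7a11 to 0.75 for Hmox1, and the blue points stay between -0.08 and 0.24 with none filled.

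In the libraries labelled SFRP2 siRNA no member passed the test against NC, and neither did any of the 12017 genes tested (0% called). The paper does report genes that went up and down with SFRP2 siRNA in polarized RAW264.7 cells, using another test, DESeq2. That test was not run here on the FPKM values, so the absence of calls does not contradict the paper's list. The members' log2 fold changes ran from -0.08 (Txnrd1) to 0.24 (Slc7a11), with a median of -0.04 beside -0.01 over all genes tested. At an unadjusted p under 0.05, 1 member of 9 (Slc7a11) passed, as did 2220 genes or 18.5% of the table (7.73% higher). A test with voom on the recovered reads called 41 genes of the table and none of the members. By their libraries, 3 of the 10 members lay above NC without overlap (Slc7a11, Gclc and Nqo1), none lay below and 7 overlapped. Nqo1 was below the filter and so is not among the genes tested. Of all genes tested, 24.7% did not overlap (10.9% higher, 13.9% lower).

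Slc7a11 had 16.6, 16.2 and 16.2 FPKM with the SFRP2 label, and the nearest NC library had 15.7. The log2 fold change of 0.24 (SE 0.08) had an unadjusted p of 0.022 and an adjusted p of 0.21 from limma, and it shrank to 0.10 with GC content and gene length regressed out. Gclc had 16.9, 17.6 and 18.1 FPKM, all above the highest NC library at 16.7, a log2 fold change of 0.12 (95% interval -0.01 to 0.24, adjusted p = 0.30 from limma). Nqo1 had 12, 15 and 9 reads against 6, 2 and 6 in NC. The ratio of the summed reads at equal depth was 2.96 (95% exact Clopper-Pearson interval 1.56 to 5.93, counting error only), and without the filter the adjusted p was 0.37 from limma. For each of these 3 genes the difference from NC was smaller in size than with the RAB6A label.

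The regulators and the abundant target genes differed little with the SFRP2 label. Nfe2l2 had 11.9, 12.6 and 12.1 FPKM and a log2 fold change of 0.06 (95% interval -0.05 to 0.18). Keap1 had 8.79, 8.69 and 8.21 FPKM and -0.07 (-0.21 to 0.07). Both ranges overlap those of NC. The Keap1 to Nfe2l2 ratio was 0.703 ± 0.0323, below every NC library (exact two-sided permutation test, p = 0.1, n = 3 each). Hmox1 had 679, 637 and 707 FPKM, within the NC range, with a log2 fold change of -0.07 (95% interval -0.26 to 0.13). Txnrd1 (53.8 to 58.8 FPKM), Srxn1, Gclm and Prdx1 had intervals between -0.21 and 0.18, so that for each of the 9 tested members a change larger than 0.44 on the log2 scale lay outside the 95% interval. For Hmox1, Keap1, Srxn1 and Prdx1 the sign turned under the GC content and gene length correction, again without passing the test.

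Set directly against the RAB6A label, in a comparison that shares libraries with both of the others, the libraries labelled SFRP2 siRNA had higher Keap1, Gclc, Txnrd1, Slc7a11 and Srxn1 and lower Nfe2l2 and Hmox1. Nqo1 passed the filter only through the group in which it was high and is left out of the count. Of the other 9 members, 7 had an adjusted p under 0.05, 5 higher and 2 lower, beside 73.4% of 12764 genes (35.8% higher and 37.6% lower). The 5 higher members had log2 fold changes of 1.05 (Gclc) to 2.12 (Slc7a11), each without overlap. Nfe2l2 was lower by a log2 fold change of -0.31 (SE 0.05, adjusted p = 0.0014 from limma) and Hmox1 by -0.81 (SE 0.08, adjusted p = 7.7e-05 from limma; -0.34 after quantile normalization). The Nqo1 value was -1.62 with the pseudocount 0.1 and -0.61 with the pseudocount 1. Gclm (0.13, 95% interval -0.07 to 0.32) and Prdx1 (-0.03, -0.21 to 0.16) overlapped. Gclm had the opposite sign with GC content and gene length regressed out (-0.14, adjusted p = 0.20 from limma) and passed the threshold without RAB6A siRNA replicate 2 (0.20, adjusted p = 0.044 from limma). Of all 12764 genes tested, 77% did not overlap (37.7% higher and 39.3% lower).

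Genes for proteins that handle Nrf2 were called in both directions with the RAB6A label. Of 13 genes past the filter among 15 partners and regulators, 5 rose, 6 fell and 2 did not pass, with a median log2 fold change of -0.13, beside 37.6% higher and 36.5% lower over all genes tested. Mafk, a small Maf partner of Nrf2, rose by 1.03 (SE 0.07, adjusted p = 9.0e-06 from limma), from 14.1 ± 0.649 to 28.9 ± 1.80 FPKM. Of the other small Maf genes, Maff fell by 0.50 (SE 0.06, adjusted p = 1.7e-04 from limma) and Mafg rose by 0.25 (SE 0.07, adjusted p = 0.019 from limma). Bach1, the repressor at the same elements, rose by 1.37 (SE 0.17, adjusted p = 2.1e-04 from limma), from 1.19 ± 0.286 to 3.18 ± 0.230 FPKM (SD, n = 3 each). Its libraries had 0.898 to 1.47 FPKM in NC and 2.94 to 3.40 with the RAB6A label. Relative to Nfe2l2, Bach1 came to 0.101 ± 0.0217 in NC, 0.0972 ± 0.00353 with the SFRP2 label and 0.209 ± 0.0132 with the RAB6A label (SD, n = 3 each). Cul3, the scaffold of the Keap1 ligase, fell by 0.34 (SE 0.09, adjusted p = 0.0093 from limma), whereas Rbx1 of the same ligase rose by 0.35 (SE 0.06, adjusted p = 0.0014 from limma). Sqstm1, the autophagy receptor that binds Keap1, gave -0.13 on overlapping ranges (adjusted p = 0.22 from limma).

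**Figure D3:**
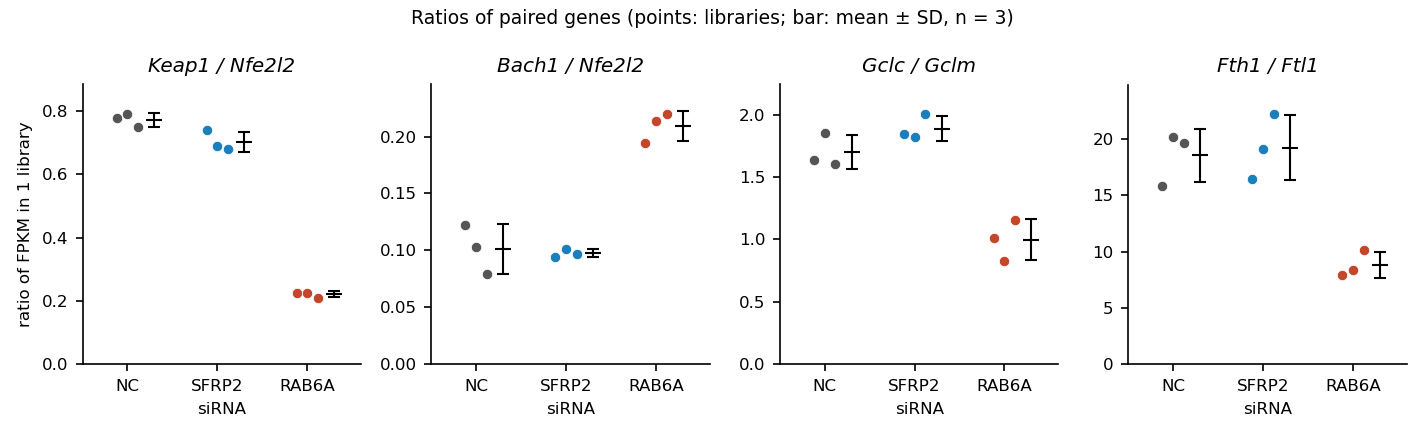
Ratio of FPKM of 2 genes within each library (vertical axis, linear, from 0) for Keap1 to Nfe2l2, Bach1 to Nfe2l2, Gclc to Gclm and Fth1 to Ftl1. Points are libraries and the bar is the mean ± SD (n = 3). In each panel the 3 RAB6A siRNA libraries stand apart from the other 6, lower except for Bach1 to Nfe2l2.

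Of 9 other genes of glutathione synthesis, supply and use past the filter, 5 fell, 3 rose and 1 did not pass with the RAB6A label. Their median log2 fold change was -0.58, and over all genes tested 36.5% fell and 37.6% rose. Gsr, glutathione reductase, fell by 1.21 (SE 0.06, adjusted p = 2.9e-06 from limma), from 18.6 ± 0.921 to 8.01 ± 0.0510 FPKM. Gpx1, a cytosolic glutathione peroxidase, fell by 1.10 (SE 0.07, adjusted p = 9.9e-06 from limma), and Chac1, which degrades glutathione, by 1.95 (SE 0.12, adjusted p = 8.2e-06 from limma). Gpx3, the secreted peroxidase, fell by 1.63 with a wide spread (SE 0.42, adjusted p = 0.0090 from limma), since its RAB6A siRNA libraries ran from 4.04 to 15.7 FPKM. Gpx4, which reduces lipid peroxides, went the other way. It rose by 1.01 (SE 0.14, adjusted p = 3.4e-04 from limma), and by 0.61 with GC content and gene length regressed out, and 2 pseudogenes carry near-identical stretches of it. NADPH, which glutathione and thioredoxin reductases consume, is supplied by enzymes of which 4 of 6 fell and 2 did not pass (median -0.32), beside the same 36.5% lower over all genes tested. Pgd of the pentose phosphate pathway fell by 1.24 (SE 0.07, adjusted p = 5.0e-06 from limma).

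Thioredoxin and peroxiredoxin genes other than the members were called in both directions. All 12 passed the filter, but Txnrd3 did so only through NC, where it was high. Of the other 11, 7 rose, 3 fell and 1 did not pass (median 0.33), beside 37.6% higher and 36.5% lower over all genes tested. Prdx5, a peroxiredoxin of mitochondria and peroxisomes, rose by 1.61 (SE 0.10, adjusted p = 6.8e-06 from limma), from 96.2 ± 3.72 to 295 ± 38.0 FPKM, and it shares 19.1% of its exon bases with Trmt112 on the other strand. Txnip, which binds and inhibits thioredoxin, rose by 1.41 (SE 0.10, adjusted p = 1.3e-05 from limma), and it shares 19.4% of its exon bases with the antisense gene Gm15441. Txnrd3, a further thioredoxin reductase, had 1.25 ± 0.189 FPKM in NC and 0.244 ± 0.0717 with the RAB6A label (SD, n = 3 each). Of the 4 tested genes Sod1, Sod2, Cat and Osgin1, Sod1 rose and the other 3 fell (median -0.30), beside the same shares over all genes tested.

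Of 7 tested haem and iron genes, 6 were higher and 1 lower with the RAB6A label (median 0.48), beside 37.6% higher and 36.5% lower over all genes tested. The lower gene was Blvra, a biliverdin reductase, with a log2 fold change of -0.44 (SE 0.06, adjusted p = 4.1e-04 from limma). Slc48a1 was the member whose call was lost after median-of-ratios scaling (adjusted p = 0.062 from limma). Ftl1, the ferritin light chain, rose by 1.55 (SE 0.12, adjusted p = 1.9e-05 from limma), from 180 ± 14.3 to 532 ± 79.9 FPKM, and 7 other genes hold near-identical stretches of it. Among them, Gm10252 on the other strand shares 26.5% of the exon bases of Ftl1. Fth1, the ferritin heavy chain, rose by 0.48 (SE 0.10, adjusted p = 0.0033 from limma), from 3325 ± 189 to 4627 ± 260 FPKM (SD, n = 3 each). The Fth1 to Ftl1 ratio went from 18.6 ± 2.36 to 8.81 ± 1.17 and stood at 19.2 ± 2.87 with the SFRP2 label. Among quinone, conjugation and export genes, the group of Nqo1, 7 of 20 were below the filter. Cbr3 passed it only through the RAB6A siRNA group, where it was higher. Of the other 12, 6 rose, 3 fell and 3 did not pass (median 0.28), beside 37.6% higher and 36.5% lower over all genes tested. Ephx1, an epoxide hydrolase, rose by 1.91 (SE 0.24, adjusted p = 2.3e-04 from limma), and Gstp1, a glutathione transferase, by 1.02 (SE 0.13, adjusted p = 2.0e-04 from limma), or by 0.67 after the GC content and gene length correction.

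Slc7a11 and Chac1 also belong to the genes driven by ATF4, the transcription factor of amino acid stress. Of 7 other targets of ATF4, 2 rose and 5 fell with the RAB6A label (median -0.60), beside 37.6% higher and 36.5% lower over all genes tested. Atf4 itself had a log2 fold change of 0.00 (SE 0.06, adjusted p = 0.98 from limma). Ddit4 rose by 2.54 (SE 0.14, adjusted p = 4.3e-06 from limma) and Ddit3 by 1.99 (SE 0.08, adjusted p = 1.5e-06 from limma), whereas Slc7a5, an amino acid transporter, fell by 1.60 (SE 0.09, adjusted p = 4.6e-06 from limma). Of 8 macrophage markers, 1 rose, 3 fell and 4 did not pass, beside the same 37.6% higher and 36.5% lower over all genes tested. Lyz2 fell by 2.03, Csf1r by 1.44 and Spi1 by 1.05 (adjusted p = 1.9e-06, 7.8e-06 and 2.0e-05 from limma). Of 6 genes of the LPS response, 2 rose, 3 fell and 1 did not pass, beside the same shares over all genes tested. Acod1, whose product itaconate can modify Keap1, fell by 1.98 (SE 0.07, adjusted p = 1.1e-06 from limma). Of 3 markers of other cell types past the filter, Pecam1, an endothelial gene, and Myh11, a smooth muscle gene, were under it in 1 of the groups, and Col1a1 did not pass the test (-0.08, adjusted p = 0.86 from limma). Pecam1 had 0.475 FPKM in NC and 0.830 with the RAB6A label. The part of these differences in the values of the Nrf2 genes was not tested. With the SFRP2 label no gene of any of these lists passed the test, and the list medians of the pathway groups lay between -0.20 and -0.02.

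**Figure D4:**
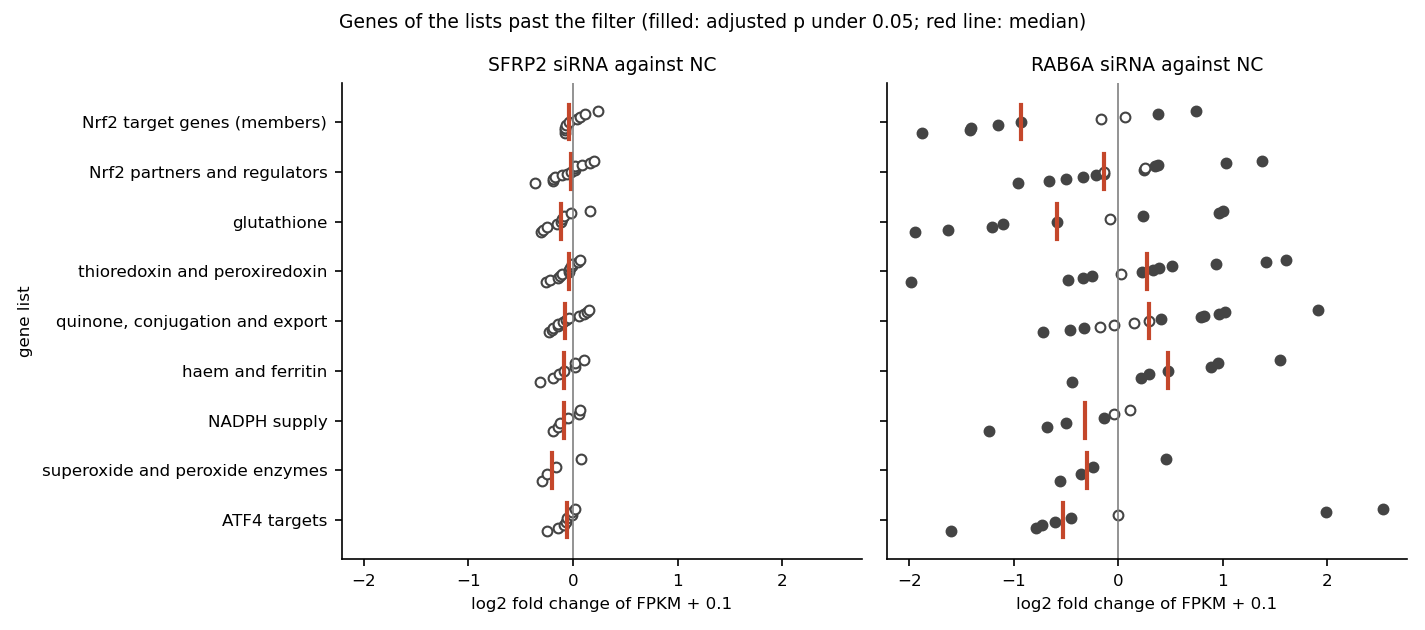
Log2 fold change of FPKM + 0.1 against NC (horizontal axis) for every gene past the filter in 9 gene lists (vertical axis), for the libraries labelled SFRP2 siRNA on the left and RAB6A siRNA on the right. Each point is a gene, filled where the adjusted p was under 0.05, and red lines are list medians. With the RAB6A label the genes of each list spread to both sides of 0, the haem and ferritin median standing at 0.48 and that of the 9 Nrf2 genes at -0.93; with the SFRP2 label no point is filled.

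The genes whose level most resembled that of Nfe2l2 across the 9 libraries were Tgoln1 (Pearson r of log2 values 0.997), Uhrf1bp1l (0.995) and Slc39a10 (0.994). For Hmox1 they were Sesn1 (0.993), Ankrd13d (0.992) and Ccdc180 (0.992). The 9 libraries fall into 3 groups of which the RAB6A siRNA one stands apart for most genes. As many as 19.2% of 12548 genes had an r over 0.9 with Nfe2l2 and 20.7% with Hmox1, so these values describe that split.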

How the data were processed

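The authors deposited FPKM values per Ensembl gene for 9 libraries. Per the labels, HISAT2, Subread and featureCounts were used; versions, genome build, annotation and strand setting are not given in the sources used here. Of 28137 identifiers, 27533 were named from GENCODE M21 (GRCm38). For 98.4% of these, FPKM times exon length came out as whole reads within 0.03 read in all libraries, which gave depths and reads per gene. Genes with a mean of at least 0.5 FPKM over the 6 libraries of a comparison were tested with limma 3.58.1 (R 4.3.3) on log2(FPKM + 0.1), eBayes with a trend and Benjamini-Hochberg adjustment over all genes tested, and fold changes are on that scale, which understates low genes. Single values and ratios were compared by exact two-sided permutation tests. The fit was tested on simulated data. Near-identical stretches were found with BLAST 2.17.0. The members and lists were chosen with earlier results of these data known. Named were all members, the siRNA targets and, per list, up to 4 called genes a direction with an absolute log2 fold change over 1. Added after their values were seen were Cul3, Rbx1, Maff, Mafg, Sqstm1, Atf4, Fth1, Blvra, Slc48a1, Cbr3, Sod1, Sod2, Cat, Osgin1, Pecam1, Myh11 and Col1a1. Alternatives were pseudocounts 1 and 0.01, no filter or 1 FPKM, eBayes without a trend, quantile normalization, median-of-ratios scaling, a replicate block, all 9 libraries, voom on recovered reads, a GC content and gene length correction (alone and with the block) and each library left out.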

Additional observations from a re-analysis of the deposited data

How the results depend on the processing

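The number of members called was 0 (SFRP2 label against NC), 7 to 8 (RAB6A label against NC) and 7 to 9 (SFRP2 against RAB6A label) under the 18 alternatives. Nqo1 is included where it was tested, although it passed the filter only through the RAB6A siRNA group, where it was high. With the settings of the Results, 0%, 74.1% and 73.4% of all genes tested were called in these comparisons. Over the whole table, SFRP2 siRNA against NC gave 0 called genes, 41 with voom on recovered reads, and 0 to 1 when a library was left out, the 1 without NC replicate 1. Prdx1, not called in SFRP2 siRNA against RAB6A siRNA (-0.03), had 0.20 after quantile normalization (adjusted p = 0.020 from limma) and -0.24 after the GC content and gene length correction (adjusted p = 0.022 from limma); the cause was not tested. The members' median in RAB6A siRNA against NC was -0.93, -0.72 after that correction and -0.55 without the filter, which adds Nqo1. Same-numbered libraries of 2 groups deviated from their group means with correlations of -0.065 to 0.054 across genes. Differently numbered libraries reached -0.131 and 0.103. These values give no sign of pairing by number, but with 3 libraries per group they cannot decide whether libraries were handled in pairs. With the replicate block the members called were 0, 7 and 8, Nqo1 being among the 8. Over the table, 0, 9103 and 9159 genes were called with the block, against 0, 9418 and 9369 without it. At an unadjusted p under 0.05 from limma, SFRP2 siRNA against NC had 2988 genes with the block and 2220 without it. Depth limits Sfrp2 and Nqo1, whose reads in NC were at most 6.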
